A study of Mus musculus with 8 samples.

Results

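Chemokines with the CXC motif are small secreted proteins that direct leukocytes along concentration gradients, and 10 of the mouse genes are described here: Pf4, Ppbp, Cxcl1, Cxcl2, Cxcl3, Cxcl5, Cxcl9, Cxcl10, Cxcl11 and Cxcl16. They were picked by exact gene symbol in the annotation of the array's probe sets, with measured results of this comparison already known, so their differences are given as a description and carry no test. Of the 10 genes, 9 had a probe set named by 1 symbol, 11 probe sets in all, among 17097 such genes in the table. A filter on low values left 7 of the 10, among 11836 genes tested.

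The arrays came from bone marrow cells of C57BL/6 mice with Rosa26-Cre-ERT2, a Cre recombinase at the Rosa26 locus that tamoxifen activates, immortalized by retroviruses for Hoxa9 and for a floxed Meis1. Hoxa9 and Meis1 are homeobox transcription factors that drive acute myeloid leukaemia together. In the Meis1 deleted group (4 arrays), 2 µM 4-hydroxytamoxifen had been added to delete the Meis1 cDNA, which leaves cells with Hoxa9 alone. In the Hoxa9 and Meis1 group (4 arrays), the original cells expressed both. All cells carried the retroviral Hoxa9 and the Cre-ERT2 allele and were kept on 5 ng/ml interleukin-3 and 10% serum. Only the retroviral Meis1 is floxed, so the mice's own Meis1 gene is not part of the deletion. The drug and the Cre activity it starts came with the deletion and cannot be told apart from it. The labels do not say how many mice or transductions were used, or that the 4 samples of a group were separate cultures, so errors and p-values cover the spread between these arrays alone, and that spread may be technical.

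Values were log2 expression values with array medians between 4.69 and 4.74, and no detection calls were used, so a level near or under the filter threshold of 4.29 can only be called low. The myeloid identity of the cells was checked on 9 marker genes, all of which passed the filter, with a mean level per array of 9.73 to 9.82 in Meis1 deleted cells and 9.54 to 9.59 in Hoxa9 and Meis1 cells. Of the markers of other cells, 3 of 5 T cell genes, 2 of 5 B cell genes and 4 of 6 erythroid genes passed the filter. So did 2 of 5 mast cell and basophil genes and 2 of 4 endothelial genes, but 0 of 4 stromal genes. Those that passed had lower mean levels per array, over both groups. These were 5.06 to 5.22 for T cell, 4.33 to 4.65 for B cell and 5.01 to 5.17 for erythroid genes. They were 5.73 to 6.24 for mast cell and basophil and 5.90 to 6.35 for endothelial genes. The brightest were Pecam1, at 7.49 in Meis1 deleted cells and 7.87 in Hoxa9 and Meis1 cells, and Mcpt8, at 6.99 and 7.73. Hoxa9 read 9.74 ± 0.53 in Meis1 deleted cells and 10.08 ± 0.17 in Hoxa9 and Meis1 cells (SD, n = 4), a gap that rests on 1 array, Meis1 deleted replicate 1 at 8.95, where the other 3 deleted arrays read 9.97 to 10.07. A probe set for Meis1 read 5.02 ± 0.07 in Meis1 deleted cells and 5.00 ± 0.05 in Hoxa9 and Meis1 cells. Another, under the filter, read 3.78 ± 0.07 in Meis1 deleted cells and 3.64 ± 0.05 in Hoxa9 and Meis1 cells, so neither was lower in the group labelled as deleted. The sources used here do not say whether either reads the retroviral message, so neither checks the deletion, which rests on the labels. The same array stood apart in RNA quality, with a 3′ minus 5′ difference of 0.72 between the Gapdh control probe sets, against -0.07 to 0.04 on the other 7 arrays.

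The genes fall into groups by receptor and by inducer. Pf4 (platelet factor 4) and Ppbp (pro-platelet basic protein, the precursor of the neutrophil attractant Cxcl7) are best known as cargo of platelet alpha granules, made in megakaryocytes, although macrophages can make them too. Cxcl1, Cxcl2, Cxcl3 and Cxcl5 attract neutrophils through Cxcr2 and are induced by NF-kB. Cxcl9, Cxcl10 and Cxcl11 attract activated T cells through Cxcr3 and are induced by interferons. Cxcl16 is made as a membrane protein that proteases can release, is bound by Cxcr6, and takes up oxidized lipoprotein while on the membrane.

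Pf4 and Ppbp were far higher after Meis1 deletion, Cxcl10 and Cxcl2 moderately so and Cxcl16 slightly, while Cxcl9, Cxcl11, Cxcl1 and Cxcl5 lay near or under the filter threshold in both groups. Of the 7 chemokines that passed the filter, 5 were past the threshold (a limma adjusted p under 0.05) on the higher side, where 18.1% of all genes tested were, and 0 on the lower side, where 17.5% of all genes were. In 5 of the 7 every Meis1 deleted array lay above every Hoxa9 and Meis1 array, as it did for 19.7% of all genes. Because the same comparison chose these genes, nothing is read from those counts. The median difference of the 7 (Meis1 deleted minus Hoxa9 and Meis1, log2) was 1.36, against -0.004 over all genes. All 7 had both group means above the filter threshold, so none of them passed the filter through 1 group alone. The other members are accounted for by Cxcl1 and Cxcl5, which fell under the filter, and by Cxcl3, which had no probe set with its name.

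**Figure D1:**
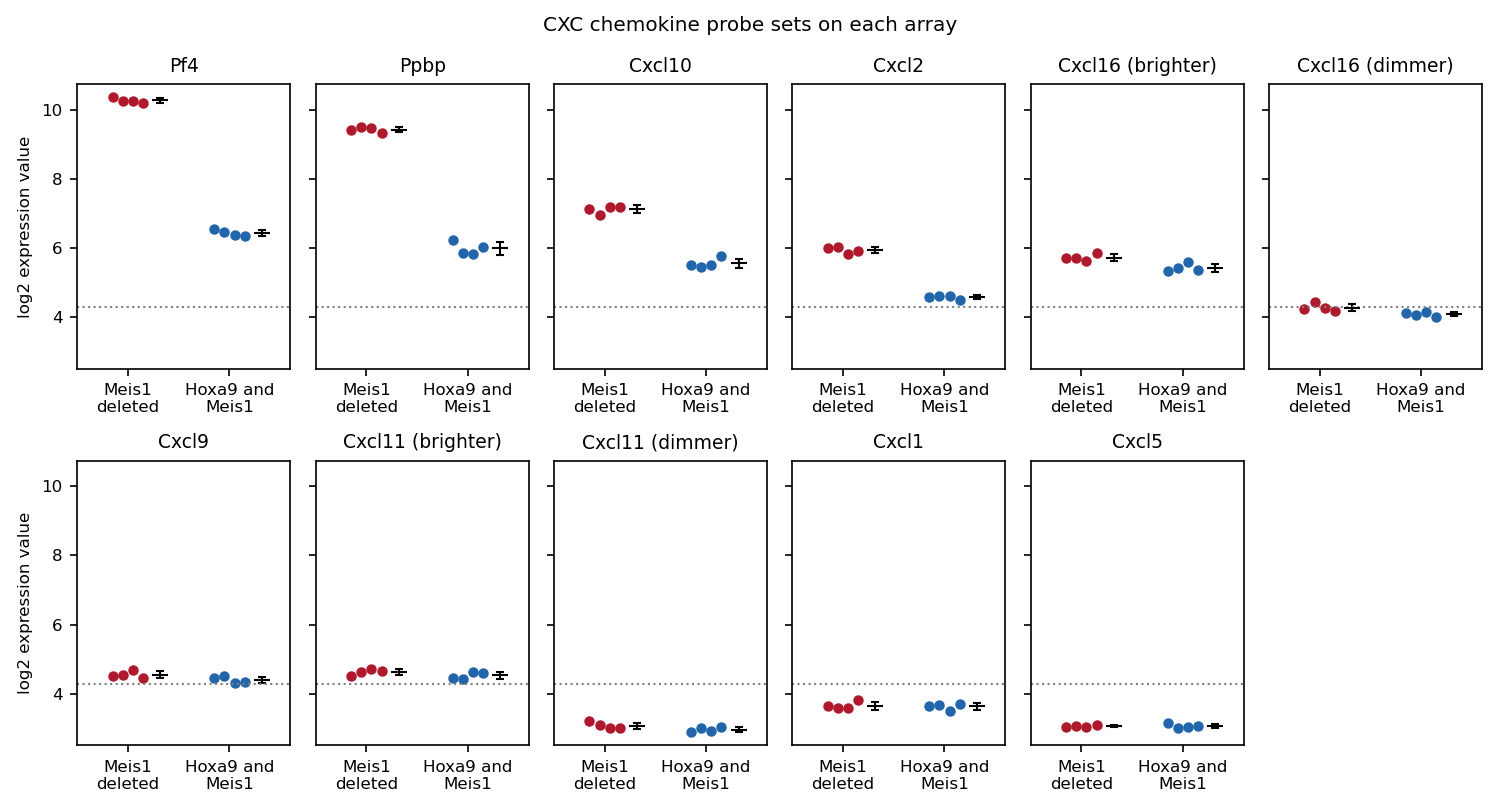
Log2 expression value (vertical axis) of each of the 11 chemokine probe sets on the 4 Meis1 deleted arrays (left in each panel) and the 4 Hoxa9 and Meis1 arrays (right), with the group mean ± SD as a black bar and the filter threshold of 4.29 as a dotted line. The Pf4, Ppbp, Cxcl10 and Cxcl2 points of the groups are well apart, and the Cxcl1 and Cxcl5 points lie under the dotted line on all arrays.

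Pf4, which binds heparin and other glycosaminoglycans, showed the largest difference of the 7. It read 10.36, 10.26, 10.26 and 10.21 on the Meis1 deleted arrays, against 6.54, 6.48, 6.36 and 6.35 on the Hoxa9 and Meis1 arrays. The groups were far from overlapping, and each of them was tight. The means were 10.27 ± 0.06 in Meis1 deleted cells and 6.43 ± 0.09 in Hoxa9 and Meis1 cells (SD, n = 4), a log2 difference of 3.84 ± 0.06 (limma's standard error from the fit over all genes) or 14.3-fold. By size this was rank 21 among the rises of the 11836 genes. In arrays of cultured cells, as in any bulk sample, more cells that express a gene and more RNA per cell cannot be told apart.

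Ppbp is the neighbouring gene, and its product becomes active only after its end is trimmed off. It read 9.41, 9.50, 9.48 and 9.34 on the Meis1 deleted arrays, against 6.24, 5.85, 5.83 and 6.04 on the Hoxa9 and Meis1 arrays. Again no array of one group came near the other, with the wider spread in the cells that kept Meis1. The means were 9.43 ± 0.07 in Meis1 deleted cells and 5.99 ± 0.20 in Hoxa9 and Meis1 cells, a log2 difference of 3.44 ± 0.09 or 10.9-fold, rank 33 among the rises.

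The stretches of 250 bases before the start of Pf4 and Ppbp are shown because these neighbours moved by similar amounts. They are from RefSeq on build GRCm38.p6, 5′ to 3′ on the gene's strand, with chr5:90772185-90772434 (plus strand) for Pf4 and chr5:90768268-90768517 (plus strand) for Ppbp. Capitals mark each match, on either strand, of the motifs searched: the interferon-stimulated response element (ISRE) GAAANNGAAA, the GAS element TTCNNNGAA, the NF-kB motif, the C/EBP motif TTGCNNAA, the GATA motif AGATAA, the ETS motif AGGAAG, the Meis motif TGACAG and the TATA box TATAAA.
Pf4: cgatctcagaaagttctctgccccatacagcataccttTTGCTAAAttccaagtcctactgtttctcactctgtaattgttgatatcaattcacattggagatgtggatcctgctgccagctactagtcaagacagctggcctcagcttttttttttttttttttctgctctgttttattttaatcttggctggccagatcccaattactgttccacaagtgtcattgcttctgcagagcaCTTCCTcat
Ppbp: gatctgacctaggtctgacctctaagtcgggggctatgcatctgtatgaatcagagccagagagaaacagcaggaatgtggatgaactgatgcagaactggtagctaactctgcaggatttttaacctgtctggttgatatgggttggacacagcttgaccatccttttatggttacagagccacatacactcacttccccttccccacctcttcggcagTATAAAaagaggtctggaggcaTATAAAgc
The Pf4 stretch held a C/EBP match that begins 212 bases before the start and an ETS match on the other strand that begins 9 bases before it. The Ppbp stretch held a pair of TATA box matches, which begin 30 and 8 bases before the start. No motif of the 8 matched in both stretches, and their 100 bases nearest the start were 41.2% identical in a global alignment. Among 32851 promoter stretches of this length, 9.56% held the C/EBP motif, 29.5% the ETS motif, 15.9% the Meis motif and 12.4% the TATA box. A match is a description of letters and not a site of binding.

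Other genes of the platelet and megakaryocyte programme differed by less than Pf4 and Ppbp in every case tested. Of 25 such genes, 20 had a named probe set and 16 were tested, with 2 higher, 4 lower and 10 that did not pass the limma test over all genes at an adjusted p of 0.05, against 18.1% higher and 17.5% lower over all genes tested, and a median difference of -0.03. Vwf, the von Willebrand factor, rose to 4.91 ± 0.15 in Meis1 deleted cells, against 4.04 ± 0.04 in Hoxa9 and Meis1 cells, a log2 difference of 0.87 ± 0.07 (adjusted p = 1.52e-05). It passed the filter through the deleted group alone, and with an offset of 64 on the linear scale, which damps low values, its difference was 0.23. Gfi1b, a transcriptional repressor of megakaryocytes and erythroid cells, fell to 5.01 ± 0.06 in Meis1 deleted cells, against 5.66 ± 0.09 in the cells with both factors (-0.65 ± 0.06, adjusted p = 2.75e-05, and -0.25 with that offset). Nfe2, a transcription factor that platelet formation needs, fell too (-0.49 ± 0.06, adjusted p = 2.10e-04), as did Itgb3, the beta chain of the platelet fibrinogen receptor (-0.28 ± 0.07, adjusted p = 0.0129), whose call was lost within each of the 2 sets into which a spiked control, bioB, split the arrays.

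Several defining genes of the lineage did not pass or lay under the filter. Itga2b, the alpha chain of that receptor, read 5.49 ± 0.07 in Meis1 deleted cells and 5.70 ± 0.18 in Hoxa9 and Meis1 cells (adjusted p = 0.0961), and passed as lower only without Hoxa9 and Meis1 replicate 1. The von Willebrand receptor subunit Gp9 read 4.54 ± 0.01 in Meis1 deleted cells and 4.54 ± 0.11 in the cells with both factors (adjusted p = 0.999). Under the filter lay Gp1bb, another subunit of that receptor, at 3.53 in Meis1 deleted cells and 3.45 in the cells with both factors, and Gata1, the master factor of the lineage, at 3.47 in Meis1 deleted cells and 3.49 in the cells with both factors. Srgn, serglycin, the proteoglycan that holds Pf4 in granules in mouse, was at 12.85 ± 0.02 in Meis1 deleted cells and 12.87 ± 0.01 in the cells with both factors (adjusted p = 0.751). These 5 genes were named after their values were seen, as were the remaining calls of the list. Treml1 was higher (0.28 ± 0.08, adjusted p = 0.0249), a call lost in 5 of 21 settings. F5 was lower (-0.24 ± 0.07, adjusted p = 0.0238), a call lost in 6 of 21 settings. The mean level of the 16 genes ran from 6.07 to 6.13 over the Meis1 deleted arrays and from 6.11 to 6.15 over the Hoxa9 and Meis1 arrays, so that the groups overlapped. Over the processing settings tried, 0 to 3 of the list were higher and 2 to 5 lower, with 1 higher when Hoxa9 and Meis1 replicate 3 or replicate 4 was left out.

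Among the neutrophil attractants, Cxcl2, also called MIP-2, differed between the groups. It read 5.99, 6.02, 5.84 and 5.91 on the Meis1 deleted arrays, against 4.58, 4.62, 4.62 and 4.48 on the Hoxa9 and Meis1 arrays. The deleted arrays all lay higher, and the arrays with Meis1 lay under the array medians. The means were 5.94 ± 0.08 in Meis1 deleted cells and 4.58 ± 0.07 in Hoxa9 and Meis1 cells, a log2 difference of 1.36 ± 0.06 or 2.57-fold, rank 181 among the rises. With the offset of 64 the difference was 0.51.

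Cxcl1, also called KC, shares the receptor and the inducers of Cxcl2 but lay under the filter in both groups. It read 3.63, 3.58, 3.57 and 3.82 on the Meis1 deleted arrays and 3.65, 3.66, 3.49 and 3.71 on the Hoxa9 and Meis1 arrays. The groups covered the same range, with means of 3.65 ± 0.12 in Meis1 deleted cells and 3.63 ± 0.10 in Hoxa9 and Meis1 cells and a difference of 0.02. Cxcl5, also called LIX, read 3.03, 3.07, 3.04 and 3.09 on the Meis1 deleted arrays and 3.16, 3.02, 3.04 and 3.05 on the Hoxa9 and Meis1 arrays, a difference of -0.01. No difference was detectable at these low levels.

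The start regions of Cxcl2 and Cxcl1 are shown because Cxcl2 differed between the groups and Cxcl1, which shares its inducers, was under the filter, with chr5:90903649-90903898 (plus strand) for Cxcl2 and chr5:90890995-90891244 (plus strand) for Cxcl1, on build GRCm38.p6 from RefSeq and with capitals as above.
Cxcl2: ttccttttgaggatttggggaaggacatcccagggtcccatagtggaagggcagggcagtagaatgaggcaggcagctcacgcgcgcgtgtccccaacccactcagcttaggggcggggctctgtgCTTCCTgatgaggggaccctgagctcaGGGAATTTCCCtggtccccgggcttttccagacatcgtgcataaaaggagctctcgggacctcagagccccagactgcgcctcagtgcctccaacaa
Cxcl1: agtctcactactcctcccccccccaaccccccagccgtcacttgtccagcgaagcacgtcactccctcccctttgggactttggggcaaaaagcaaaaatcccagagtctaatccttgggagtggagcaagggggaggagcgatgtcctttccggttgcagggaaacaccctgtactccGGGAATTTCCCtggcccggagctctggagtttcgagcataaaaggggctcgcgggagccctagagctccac
Both held the same NF-kB match, GGGAATTTCCC, which reads as the motif on either strand and begins 97 bases before the start in Cxcl2 and 71 bases before it in Cxcl1. Cxcl2 also held an ETS match that begins 124 bases before the start. Cxcl3 held the same NF-kB letters, beginning 73 bases before its start. In all, 4 of the 7 members with an entry in the promoter table (Cxcl1, Cxcl2, Cxcl3 and Cxcl10) held the NF-kB motif, against 3.9% of all 32851 stretches. Over the 100 bases nearest the start, Cxcl1 and Cxcl2 were 52% identical, Cxcl1 and Cxcl3 64.6%, and Cxcl2 and Cxcl3 48.4%. The other member pairs ran from 39.8% (Cxcl2 and Ppbp) to 56.9% (Cxcl9 and Cxcl10), so only Cxcl1 and Cxcl3 lay above that range.

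Of 21 genes of the NF-kB pathway and its inducers, 18 were tested, with 9 higher, 1 lower and 8 that did not pass, against 18.1% higher and 17.5% lower over all genes tested, and a median difference of 0.17. Among the 9 higher, the NF-kB subunit Relb passed the filter through the deleted group alone. It read 4.65 ± 0.16 in Meis1 deleted cells and 4.10 ± 0.11 in Hoxa9 and Meis1 cells. Its difference of 0.55 ± 0.09 was as low as 0.14 over the settings tried. Il1b, the cytokine interleukin-1 beta, rose to 5.91 ± 0.05 in Meis1 deleted cells, against 5.33 ± 0.11 in Hoxa9 and Meis1 cells (0.58 ± 0.06, adjusted p = 7.61e-05, and 0.25 with the offset of 64). Cebpd, a transcription factor of inflammatory genes, rose by 0.46 ± 0.05 (adjusted p = 6.21e-05), and Myd88, the adaptor of Toll-like and interleukin-1 receptors, by 0.44 ± 0.05 (adjusted p = 6.51e-05). Nfkbia, the NF-kB inhibitor IkB alpha, fell to 9.38 ± 0.08 in Meis1 deleted cells, against 9.85 ± 0.05 in the cells with both factors (-0.47 ± 0.05, adjusted p = 1.25e-04). The inhibitors Nfkbie (1.27 ± 0.16, adjusted p = 2.43e-04) and Tnfaip3 (0.65 ± 0.08, adjusted p = 1.66e-04) rose instead. Besides Relb, the NF-kB subunits tested did not pass, namely Rela (0.01 ± 0.10, adjusted p = 0.943), Rel and Nfkb2. These inhibitors and subunits, apart from Nfkbia, were named after their values were seen. The count of lower genes in the list was 1 to 3 over the settings tried, with 2 when Meis1 deleted replicate 1 was left out, and the call on Il1b was lost within the 3 arrays of high bioB.

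Messages of neutrophil attractants such as Cxcl1 are short-lived because proteins that bind AU-rich elements direct their decay. Of 8 genes listed around message decay, not all of them AU-rich decay factors, 7 were tested, and Zfp36 had no named probe set. Of the 7, 1 was higher and 2 lower, against 18.1% higher and 17.5% lower over all genes tested, with a median of 0.01. Zfp36l1, which promotes decay, rose to 10.38 ± 0.11 in Meis1 deleted cells, against 8.49 ± 0.15 in Hoxa9 and Meis1 cells (1.89 ± 0.09, adjusted p = 2.43e-07). Its relative Zfp36l2 fell (-0.64 ± 0.05, adjusted p = 1.69e-05). Zc3h12a, an RNase also called Regnase-1 that degrades inflammatory messages, fell to 5.24 ± 0.15 in Meis1 deleted cells, against 6.19 ± 0.08 in the cells with both factors (-0.95 ± 0.08, adjusted p = 1.43e-05, and -0.43 with the offset of 64). Without Meis1 deleted replicate 1, 2 genes of the list were higher.

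Cxcl10, also called IP-10, was the only interferon-inducible member of the 3 with a clear difference. It read 7.14, 6.97, 7.20 and 7.20 on the Meis1 deleted arrays, against 5.52, 5.46, 5.51 and 5.76 on the Hoxa9 and Meis1 arrays. No array of one group reached the other, and both groups lay above the array medians. The means were 7.13 ± 0.11 in Meis1 deleted cells and 5.56 ± 0.13 in Hoxa9 and Meis1 cells, a log2 difference of 1.56 ± 0.08 or 2.96-fold, rank 142 among the rises.

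Cxcl9, also called MIG and induced mainly by interferon gamma, read 4.51, 4.54, 4.69 and 4.45 on the Meis1 deleted arrays and 4.44, 4.50, 4.30 and 4.34 on the Hoxa9 and Meis1 arrays. The groups overlapped close to the filter threshold, with means of 4.55 ± 0.10 in Meis1 deleted cells and 4.39 ± 0.09 in Hoxa9 and Meis1 cells and a difference of 0.15 ± 0.07 that was not past the threshold. Cxcl11 is annotated by RefSeq as a transcribed pseudogene in the reference strain, which is of the C57BL/6 background. Its brighter probe set read 4.50, 4.63, 4.70 and 4.67 on the Meis1 deleted arrays and 4.45, 4.41, 4.63 and 4.60 on the Hoxa9 and Meis1 arrays, which overlapped (difference 0.10 ± 0.07). Its dimmer probe set lay under the filter, between 3.00 and 3.20 on the Meis1 deleted arrays and between 2.88 and 3.03 on the Hoxa9 and Meis1 arrays. Neither probe set separated the groups.

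The start region of Cxcl10 is shown because it was the interferon-inducible member that differed, at chr5:92348890-92349139 (minus strand) on build GRCm38.p6 from RefSeq, written 5′ to 3′ on the gene's strand with capitals as above.
Cxcl10: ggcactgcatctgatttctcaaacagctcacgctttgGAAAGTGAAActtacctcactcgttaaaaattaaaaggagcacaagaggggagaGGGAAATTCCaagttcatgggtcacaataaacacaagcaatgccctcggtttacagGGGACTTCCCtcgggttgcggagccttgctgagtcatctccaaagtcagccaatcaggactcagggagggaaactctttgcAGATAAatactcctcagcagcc
It held the ISRE letters GAAAGTGAAA, beginning 213 bases before the start, a pair of NF-kB matches that begin 159 and 103 bases before it, and a GATA match that begins 22 bases before it. The ISRE motif was in 2.98% of all stretches and in 1 of the 7 member stretches, that of Cxcl10. The GAS motif, in 7.02% of all stretches, was in 0 of the 7, and so was the Meis motif. The GATA motif was in 9.99% of all stretches. The Cxcl9 stretch held a TATA box match that begins 195 bases before its start and none of the other 7 motifs. Cxcl5, Cxcl11 and Cxcl16 had no entry in the promoter table.

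Of 16 interferon signalling genes listed, 13 were tested, with 6 higher, 2 lower and 5 that did not pass, against 18.1% higher and 17.5% lower over all genes tested, and a median of 0.23. The 4 rises with the smallest p were of transcription factors of the response. Irf9, the DNA-binding part of the complex that binds the ISRE, rose to 8.14 ± 0.20 in Meis1 deleted cells, against 6.55 ± 0.18 in Hoxa9 and Meis1 cells (1.58 ± 0.12, adjusted p = 6.73e-06). Stat2, its partner, rose to 6.06 ± 0.14 in Meis1 deleted cells, against 4.66 ± 0.20 in the cells with both factors (1.40 ± 0.10, adjusted p = 7.52e-06). Irf7, which amplifies type I interferon, rose by 0.96 ± 0.08 (adjusted p = 1.19e-05) and Irf1, an activator downstream of interferon gamma, by 0.58 ± 0.05 (adjusted p = 1.83e-05). With the offset of 64 the difference was 0.55 for Stat2 and 0.41 for Irf7.

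The ligands themselves stayed under the filter. Ifng read 3.43 in Meis1 deleted cells and 3.51 in Hoxa9 and Meis1 cells, and Ifnb1 read 4.18 in Meis1 deleted cells and 4.21 in the cells with both factors. The 2 lower genes were the kinase Jak2 (-0.32 ± 0.04, adjusted p = 2.45e-04) and the feedback inhibitor Socs1 (-0.28 ± 0.09, adjusted p = 0.0401), whose call was lost in 9 of 21 settings, among them the removal of Meis1 deleted replicate 3 or 4 or of any of the Hoxa9 and Meis1 arrays. These 4 genes were named after their values were seen.

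Cxcl16 differed little. Its brighter probe set read 5.72, 5.71, 5.62 and 5.85 on the Meis1 deleted arrays, against 5.35, 5.41, 5.60 and 5.37 on the Hoxa9 and Meis1 arrays. The groups did not overlap, but the lowest deleted array and the highest array with Meis1 were nearly equal. The means were 5.72 ± 0.10 in Meis1 deleted cells and 5.43 ± 0.11 in Hoxa9 and Meis1 cells, a difference of 0.29 ± 0.07 or 1.23-fold, rank 1415 among the rises. A dimmer probe set under the filter read 4.23, 4.43, 4.25 and 4.18 on the Meis1 deleted arrays, against 4.12, 4.06, 4.14 and 4.01 on the Hoxa9 and Meis1 arrays. It too had no overlap between groups, with a difference of 0.19.

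**Figure D2:**
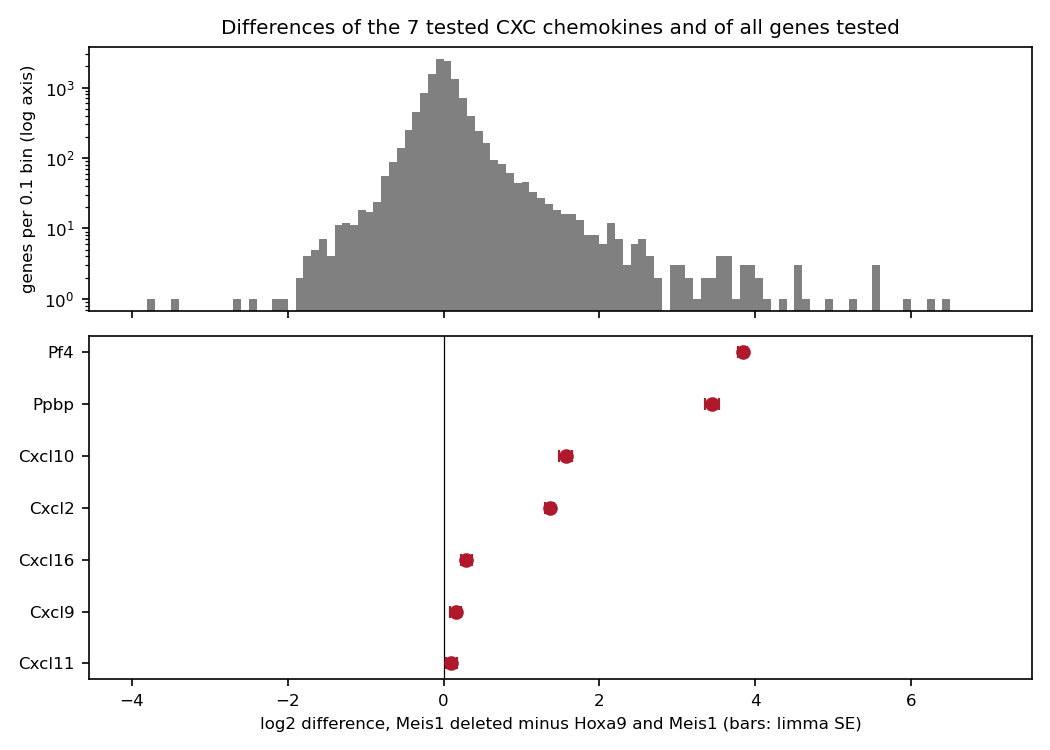
Log2 differences (Meis1 deleted minus Hoxa9 and Meis1, horizontal axis) of all 11836 genes as counts per bin on a log axis (top), and of the 7 tested chemokines with limma's standard error (bottom). Pf4 at 3.84 and Ppbp at 3.44 lie in the far right tail, Cxcl10 at 1.56 and Cxcl2 at 1.36 in its shoulder, and Cxcl16, Cxcl9 and Cxcl11 within the bulk.

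Receptors for these ligands were low or absent from the tested genes. Of 8 receptors listed, 5 had a named probe set and 2 were tested. Cxcr2, the receptor of Cxcl1, Cxcl2, Cxcl3, Cxcl5 and Ppbp, read 4.80 ± 0.11 in Meis1 deleted cells, against 5.05 ± 0.10 in Hoxa9 and Meis1 cells (-0.25 ± 0.07, adjusted p = 0.0217). That call was lost in 5 of 21 settings, among them both sets of arrays taken alone and the removal of Hoxa9 and Meis1 replicate 1 or 3. Cxcr3, the receptor of Cxcl9, Cxcl10 and Cxcl11, read 4.41 ± 0.12 in Meis1 deleted cells and 4.44 ± 0.08 in the cells with both factors (adjusted p = 0.741). Cxcr6, the receptor of Cxcl16, lay under the filter at 4.28 in Meis1 deleted cells and 4.04 in the cells with both factors. Of 7 other ligands of the CXC, CX3C and XC families, 4 were tested and 0 passed, with a median of 0.03.

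Of 10 proteases that release or trim chemokines, 8 were tested, with 3 higher and 2 lower, against 18.1% higher and 17.5% lower over all genes tested. Within the low and within the high bioB arrays taken alone, 3 were higher and 0 lower. Mmp8, neutrophil collagenase, which trims Cxcl5 in mouse, rose to 10.79 ± 0.07 in Meis1 deleted cells, against 8.79 ± 0.02 in Hoxa9 and Meis1 cells (2.00 ± 0.05, adjusted p = 2.60e-09). Mmp12, macrophage elastase, rose to 10.48 ± 0.03 in Meis1 deleted cells, against 8.61 ± 0.06 in the cells with both factors (1.88 ± 0.05, adjusted p = 3.74e-09). Mmp9, a gelatinase, rose by 0.61 ± 0.10 (adjusted p = 0.00112), and by 0.19 with the offset of 64. Elane, neutrophil elastase, fell (-0.50 ± 0.13, adjusted p = 0.0123), a call that was lost within both sets of arrays.

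Cathepsin G and the sheddases Adam10 and Adam17 did not pass. Ctsg, cathepsin G, which in human turns pro-platelet basic protein into its neutrophil-attracting form, read 13.19 ± 0.01 in Meis1 deleted cells and 13.17 ± 0.04 in Hoxa9 and Meis1 cells, at the top of the scale (adjusted p = 0.703). Adam10, the main sheddase of Cxcl16, differed by -0.01 ± 0.04 (adjusted p = 0.910). Adam17, another sheddase, differed by 0.16 ± 0.06 (adjusted p = 0.0588) and passed in 4 of 22 settings. These 3 genes were named after their values were seen. The fifth call of the list, a fall of 0.12 on the log2 scale for Prtn3, was lost in 13 of 22 settings, the removal of any of the arrays among them.

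**Figure D3:**
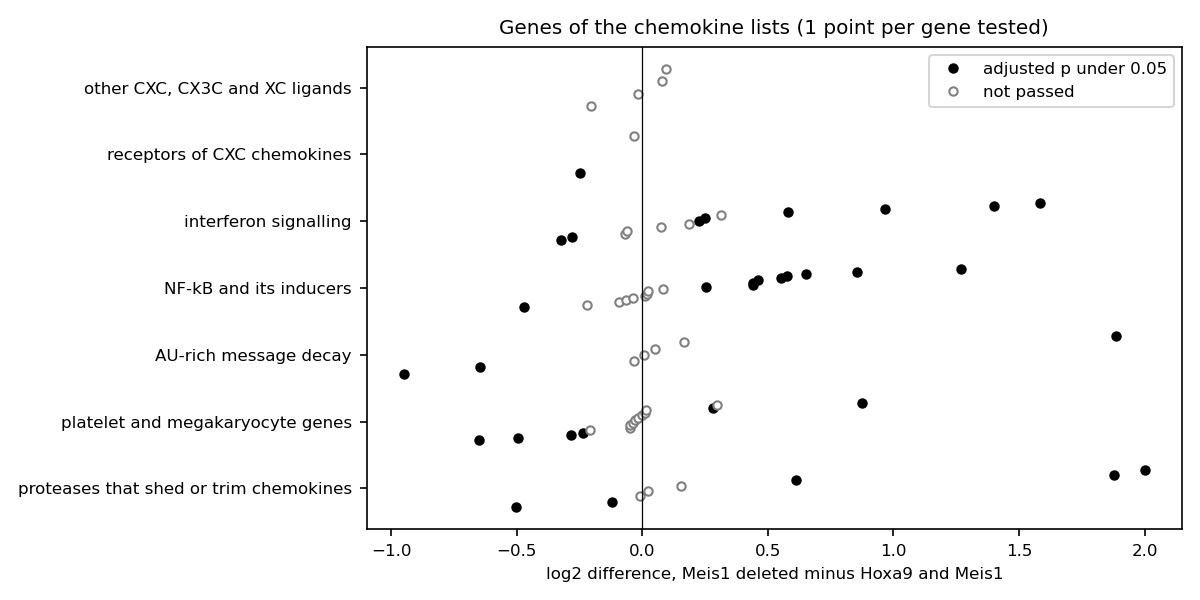
Log2 difference (Meis1 deleted minus Hoxa9 and Meis1) of each tested gene in 7 lists around the chemokines, filled where limma's adjusted p was under 0.05 and open where it was not. Mmp8, Zfp36l1 and Mmp12 lie furthest right at 2.00, 1.89 and 1.88, followed by Irf9 at 1.58, and 10 of the 16 platelet and megakaryocyte genes are open points.

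Most members lie in a pair of clusters on chromosome 5. In the RefSeq gene order of GRCm38.p6, Cxcl5, Ppbp, Pf4, Cxcl3, Cxcl15, Cxcl1 and Cxcl2 follow each other without another protein-coding gene between them. Pf4 and Ppbp are direct neighbours. All 3 tested chemokines of this cluster, Ppbp, Pf4 and Cxcl2, were higher, but the same comparison chose them, so nothing is read from that count. The 8 protein-coding genes on each side, with Cxcl15, gave 17 neighbours, chosen after values were seen, of which 9 were not tested and 8 were. Of the 8, 1 was higher (Cox18, 0.35 ± 0.04) and 1 lower (Rchy1, -0.29 ± 0.09). The call on Cox18 was lost within the high bioB set. That on Rchy1 was lost within both bioB sets, and without Meis1 deleted replicate 2 or Hoxa9 and Meis1 replicate 3 or 4. Over all genes tested, 18.1% were higher and 17.5% lower. The nearest flanks did not pass, with Rassf6 at 0.14 ± 0.08 (limma adjusted p = 0.221) and Mthfd2l at -0.14 ± 0.11 (adjusted p = 0.366).

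The second cluster holds Cxcl9, Art3, Cxcl10 and Cxcl11 in that order. Of its 17 neighbours 10 were tested, with 1 higher (Cdkl2, 0.57 ± 0.06, and 0.19 with the offset of 64) and 3 lower (Uso1, Nup54 and Septin11, between -0.33 and -0.23). The shares over all genes tested were 18.1% higher and 17.5% lower. The calls on Uso1 and Nup54 were lost within both bioB sets, and that on Septin11 within the high set and when its probe sets were averaged (-0.12). Cxcl16 lies alone on chromosome 11, where 11 of 16 neighbours were tested. Against those same shares, 4 of its neighbours were higher and 0 lower. Of the 4, Rnasek was lost in 7 of 22 settings, and Psmb6 and Pld2 were lost within the high bioB set. Pld2 was as low as 0.13 over the settings tried. The largest of the 4 was Arrb2 at 0.80 ± 0.05, an arrestin of chemokine receptors, above the 0.29 of Cxcl16 itself. The call on Arrb2 held in every setting.

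**Figure D4:**
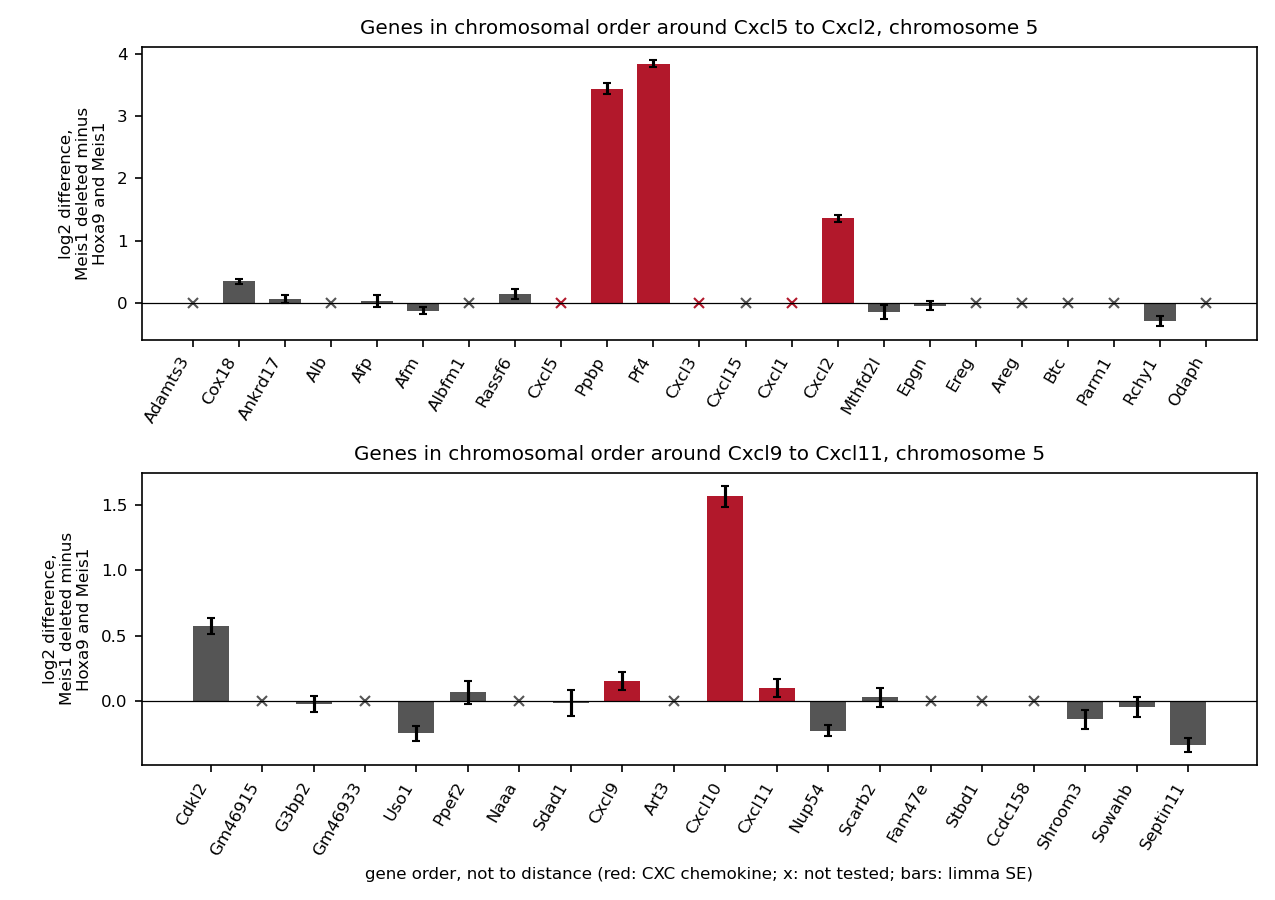
Log2 difference with limma's standard error (vertical axis, scales differ) for genes in chromosomal order around the Cxcl5 to Cxcl2 cluster (top) and the Cxcl9 to Cxcl11 cluster (bottom), with chemokines in red, other genes in grey and a cross for genes not tested. Ppbp, Pf4 and Cxcl2 in the top panel and Cxcl10 in the bottom panel stand above their tested neighbours.

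By distance between centred log2 values over the 8 arrays, the 3 tested genes most like Pf4 were Saa3, a serum amyloid A (distance 0.166, difference 3.88 ± 0.05), Ms4a6d, a membrane protein of myeloid cells (0.200, difference 3.97 ± 0.06), and Marcks, a substrate of protein kinase C (0.305, difference 3.67 ± 0.05). Marcks was at 3.35 in Hoxa9 and Meis1 cells, under the filter threshold, so the size of its difference is uncertain, and it was 1.38 with the offset of 64. With 4 arrays in each of 2 groups, such likeness mostly reflects the size of the group difference.

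The spiked bioB control separated 5 arrays with low values, 3 of them Meis1 deleted, and 3 with high values, 1 of them Meis1 deleted. Pf4 differed by 3.79 within the low set and 3.85 within the high set, Ppbp by 3.42 and 3.41, Cxcl10 by 1.61 and 1.57, Cxcl2 by 1.35 and 1.35, Cxcl16 by 0.30 and 0.37, Cxcl9 by 0.11 and 0.13, and Cxcl11 by 0.18 and 0.05. The high set sets 1 Meis1 deleted array against 2 others, with the lone array assumed to vary like the rest, and there Cxcl16 was not past the threshold. Without Meis1 deleted replicate 1, the array with the 3′ shift, Pf4 differed by 3.81, Ppbp by 3.45, Cxcl10 by 1.56 and Cxcl16 by 0.30.

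**Figure D5:**
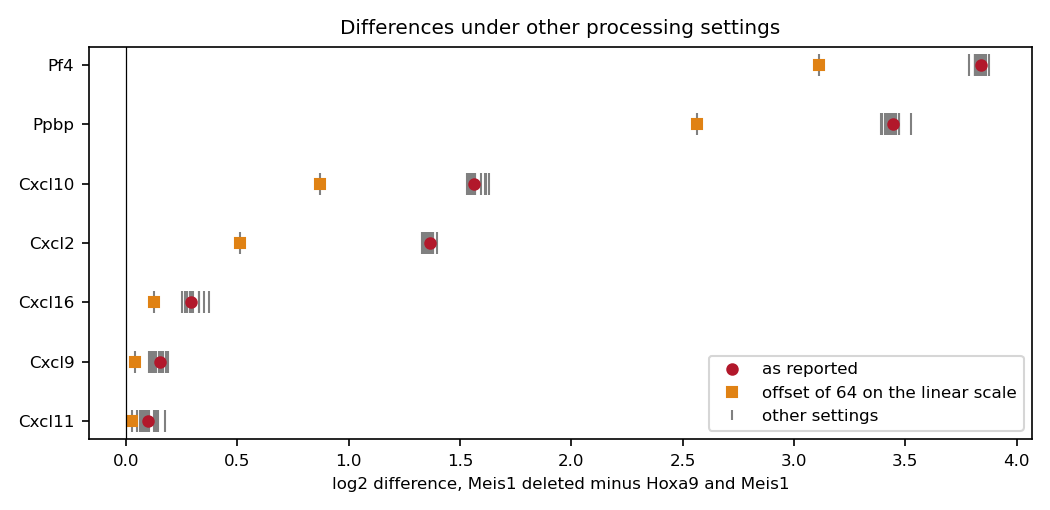
Log2 difference (Meis1 deleted minus Hoxa9 and Meis1) of the 7 tested chemokines as reported (red), with an offset of 64 on the linear scale (orange) and under the other processing settings (grey ticks). An offset of 64 lowered Cxcl2 to 0.51 and Cxcl10 to 0.87, and the order of Pf4, Ppbp, Cxcl10 and Cxcl2 was the same there.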

How the data were processed

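Gene expression was measured in 8 samples on 1-colour Affymetrix arrays, from 100 ng of total RNA each, per the labels' protocols. The authors deposited log2 values, 1 per probe set and array. The log scale and a normalization between arrays were judged from the range and the nearly equal array quantiles, and MAS5 is named without a role in the submitters' processing notes. The sources used here name neither the probe summarisation nor a genome build, and no detection calls were used. The table was used as deposited, with no offset, since the design allowed for values that are already logarithms.

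After removal of 104 control probe sets, the 40% of probe sets with the lowest mean were left out, which kept 27022 of 45037. Each gene was read from its brightest kept probe set with 1 symbol in GEO's platform annotation, 11836 genes in all. limma 3.58.1 in R 4.3.3 was fitted without covariates over the kept probe sets (lmFit, eBayes), adjusted over genes by Benjamini-Hochberg, and called at 0.05. It was tested on simulated data. Errors of levels are SD over 4 arrays, and the number of arrays limits the precision. Differences are Meis1 deleted minus Hoxa9 and Meis1.

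The members, the lists and the settings were chosen with earlier results of these data known. The text names all 10 members, up to 4 genes of each list with the smallest p among those that passed, the 3 genes most like Pf4, and others where said. Python 3.11.15 with matplotlib 3.10.9 searched the motifs and drew the plots.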

Additional observations from a re-analysis of the deposited data

Results flagged for a closer look

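Among 76 groups of 4 arrays checked (the members' probe sets and the named genes of the lists), 2 held an array far from the other 3, where chance flags about 1 group in 20, and no chemokine was among them. Mmp8 read 10.69 in Meis1 deleted replicate 1, against 10.82 to 10.84 on the other Meis1 deleted arrays, all of them above the 8.79 ± 0.02 of the Hoxa9 and Meis1 cells. Mcpt8, a mast cell and basophil protease, read 7.617 in Hoxa9 and Meis1 replicate 2, against 7.756 to 7.778 on the other Hoxa9 and Meis1 arrays, and averaged 6.99 ± 0.28 in Meis1 deleted cells and 7.73 ± 0.08 in the cells that kept both factors (limma adjusted p = 0.00144).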

How the results depend on the processing

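Over 22 other settings, 5 members were past the threshold on the higher side, except for 6 with array weights, where Cxcl9 joined, and 4 within the arrays of high bioB, where Cxcl16 was lost, or with the lowest 60% left out, which tested only 4. Pf4 ranged between 3.11 and 3.88, Ppbp between 2.56 and 3.53, Cxcl10 between 0.87 and 1.63, Cxcl2 between 0.51 and 1.40 and Cxcl16 between 0.13 and 0.37, each lowest with the offset of 64. Genes past the threshold numbered 4206, but 2114 and 2158 within the arrays of low and high bioB, where fewer arrays were tested, 6145 probe sets when each was tested alone, and 3426 to 4673 with 1 array left out. With the replicate number as a block they numbered 3906, all 5 member calls held, and the call on Cxcr2 was lost. Same-numbered arrays deviated together with correlations of 0.03, 0.22, -0.13 and 0.29, which does not settle whether they were paired. The arrays of replicates 1, 2 and 4 also fell in the same bioB set as their namesakes, and those of replicate 3 did not. Over the settings, 53 genes past the threshold were followed, from the lists, the neighbours and the genes most like Pf4. Of these, 31 passed in every setting that tested them and 22 lost the call in at least 1. Some of the 31, among them Vwf, Gfi1b, Relb and Cdkl2, were not tested with the lowest 60% left out. None of the 53 changed sign. The cause of the lost calls was not tested. Low signal limits Cxcl1, Cxcl5, Cxcl9 and Cxcl11, which lay near or under the filter threshold in both groups.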

Other observations

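Csf1r, the receptor of macrophage colony-stimulating factor, rose to 8.41 ± 0.16 in Meis1 deleted cells, against 7.36 ± 0.06 in Hoxa9 and Meis1 cells (limma log2 difference 1.06 ± 0.08, adjusted p = 7.93e-06). Csf3r, the receptor of granulocyte colony-stimulating factor, rose to 8.12 ± 0.14 in Meis1 deleted cells, against 7.08 ± 0.08 in cells with both factors (1.04 ± 0.08, adjusted p = 6.80e-06). Mpo, myeloperoxidase, rose by 0.59 ± 0.08 (adjusted p = 4.35e-04). Cd33, a lectin of myeloid cells, fell to 8.12 ± 0.05 in Meis1 deleted cells, against 9.08 ± 0.04 in cells with both factors (-0.96 ± 0.05, adjusted p = 3.79e-07). Of the 9 myeloid markers, 5 were higher and 2 lower, against 18.1% higher and 17.5% lower over all genes tested.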
